A study of Mus musculus with 2 samples.

Results

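Forebrain and midbrain neuroectoderm is described here as the cells that held at least 2 spliced UMIs of Sox2 and at least 2 of Otx2. A UMI (unique molecular identifier) stands for 1 captured RNA molecule, and spliced means that the read lacked intron sequence. The cells also had fewer than 3 UMIs of Epcam (an epithelial adhesion protein), fewer than 2 of Sox10 (a neural crest factor), and embryonic globin RNA (Hba-x, Hbb-bh1 and Hbb-y) below 0.5% of their spliced UMIs. These criteria held for 662 of 18233 cells. Of these, 188 came from the 8981 tdTom+ cells and 474 from the 9252 tdTom- cells, and both fractions are given apart throughout.

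The embryos were chimeras made to follow cells that lack Gata1, a transcription factor of red blood cells, next to wildtype cells in the same embryo. The tdTom+ fraction (tomPOS in the sample names) is Gata1-: it descends from 1 clone of male embryonic stem cells, derived from a ROSA26-tdTomato by C57BL/6 cross, in which Cas9 left a frameshift of 38 bp in exon 4 of Gata1. The tdTom- fraction (tomNEG) is the wildtype C57BL/6 host, and its cells are called host cells below. From 6 pooled whole embryos, cells were sorted by tdTomato fluorescence after DAPI had marked dead cells, and each fraction gave 1 droplet-based single-cell library. The labels state embryonic day 8.5 for the tdTom+ cells and 8.6 for the tdTom- cells. The titles of both samples give 8.5, as does the paper for the harvest, and both fractions came from the same pooled embryos. With 1 library per fraction, genotype, clone, strain, sex and library cannot be told apart, and no test between fractions was possible. All intervals given are 95% intervals of counting error within these libraries.

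The neural plate of the mouse embryo is patterned from front to back while it folds into a tube. Otx2 marks the part that forms the forebrain and midbrain, and the factors Six3, Rax, Lhx2 and Hesx1 act at its anterior end, where the eye field and the telencephalon arise. En1, Pax2, Pax5 and Wnt1 act in the midbrain, next to the isthmus, a signalling centre that secretes Fgf8 and lies at the border to the hindbrain. Sox2 keeps cells along the whole neural plate in the progenitor state.

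The selected cells were deeply covered. The median was 18232 spliced UMIs per cell in the tdTom+ fraction and 17782.5 in the tdTom- fraction. Both libraries as a whole had slightly lower medians of 17598 and 15996, with totals of 167940767 and 157174026 spliced UMIs. Mitochondrial RNA (both 1.5%), unspliced RNA (14.6% and 14.9%) and genes per cell (medians of 4731 and 4728) were nearly equal in the selected cells of both fractions. Scrublet, which looks for droplets with more than 1 cell, called 11 of the 188 tdTom+ and 30 of the 474 host cells, which were kept. The 2 libraries shared 18 barcodes, and 1 selected cell carried a shared one.

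The selected cells made up 2.09% of the tdTom+ library (1.81% to 2.41%) and 5.12% of the tdTom- library (4.68% to 5.59%). Their share was thus lower in the tdTom+ library, at 0.409 times the tdTom- share. The selection used Sox2, whose level differed between the fractions. The median was 4.5 Sox2 UMIs (quartiles 3 and 6, highest 16) in the selected tdTom+ cells and 6 (quartiles 4 and 10, highest 21) in the host cells. Exactly 2 Sox2 UMIs, the minimum, were held by 36 tdTom+ cells (19.1%) and 42 host cells (8.86%). For Otx2 the median was 4 UMIs in both fractions, and 36 and 91 cells sat at its minimum.

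Cells just below the Sox2 minimum looked different in the 2 fractions. Among cells with exactly 1 Sox2 UMI that met every other criterion, 93.5% of 31 tdTom+ cells had at least 2 UMIs of the anterior or of the midbrain genes listed further on, against 60.9% of 23 host cells. These are small groups that also differed in depth, with medians of 16677 and 11386 spliced UMIs, and the criterion is a raw count. The part of depth was not tested. Just inside, at 2 UMIs, the value was 83.3% in both fractions. Of all cells that met the other criteria, whatever their Sox2, the minimum kept 71.8% of 262 tdTom+ and 88.9% of 533 host cells. Just outside the Otx2 minimum, at 1 UMI, lay 53 tdTom+ and 111 host cells, of which 75.5% and 74.8% had those regional UMIs. The difference in share between the fractions became smaller when Sox2 was not used. Without a Sox2 minimum the tdTom+ share was 0.506 times the tdTom- share. This setting also let in 43 tdTom+ and 36 host cells with 0 Sox2 UMIs. Of these, only 34.9% and 19.4% had those regional UMIs, so many of the added cells lacked regional support. With Sox1, Sox3 and Sox21, related neural factors, in place of Sox2 the tdTom+ share was 0.482 times the tdTom- share. The tdTom+ share stayed the lower one under each of the settings tried, which are listed at the end.

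**Figure D1:**
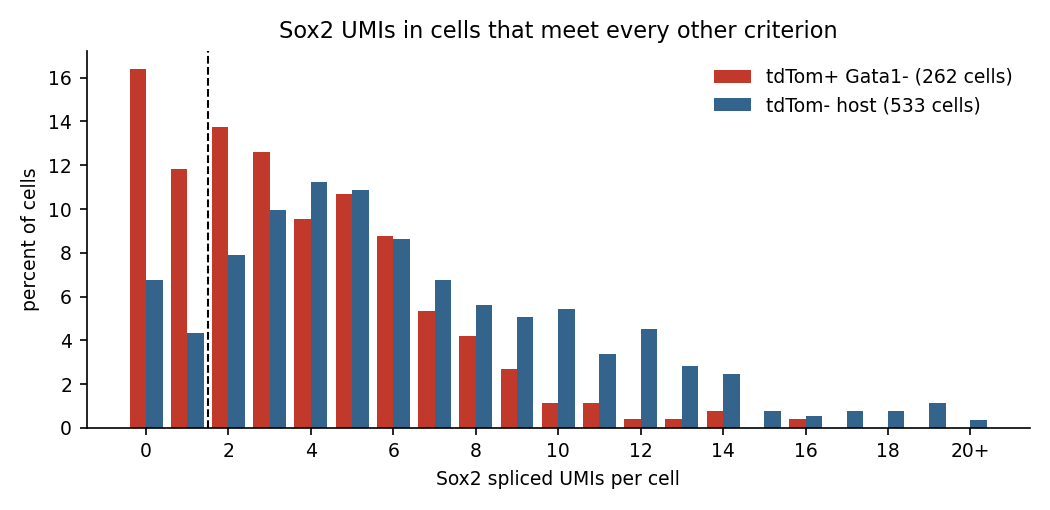
Sox2 spliced UMIs per cell (x axis) against the percent of cells (y axis) among cells that meet every other criterion, in the tdTom+ and tdTom- fractions. The tdTom+ cells sit further left, with a median of 4.5 against 6 UMIs among the cells at or above the minimum of 2.

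The neural part of the label was checked with Hes5 and Pax6, neither of which the selection used. Hes5 is a Notch effector of neural progenitors, and Pax6 a factor of the eye field and dorsal forebrain. Each cell was first thinned at random to 8000 UMIs, which left 184 tdTom+ and 465 host cells. Hes5 was then found in 15.8% of tdTom+ (10.8% to 21.8%) and 20.2% of host cells (16.7% to 24.2%). In endothelial cells of the same libraries, which should lack it and serve as a measure of free RNA, the shares were 1.18% and 1.58%. Pax6 was found in 16.8% and 24.7% of the selected cells and in 0.526% and 0.789% of endothelial cells. Without thinning, Hes5 was in 23.9% and 31.2% and Pax6 in 28.7% and 42.4% of the selected cells. Both markers were thus present well above the level in endothelial cells, in a minority of cells. Trunk neural cells were left out of this comparison, so it does not separate brain from trunk. The comparison groups were 793 tdTom+ and 539 tdTom- endothelial cells, with at least 8 UMIs over 11 endothelial genes, and 276 and 469 trunk neural cells, with Sox2 but no Otx2 and at least 3 UMIs of Hox genes of paralogue groups 4 to 9. Of the selected cells, 5 also met the endothelial criterion.

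The genes that stood out most from all other cells of the same library are given as a description, because the cells were chosen by Sox2 and Otx2. CPM below is the UMIs of a gene summed over a group of cells, scaled to a total of 1000000 spliced UMIs of that group. Next to Otx2 itself (236 CPM in tdTom+ and 253 CPM in host cells), they included Lhx5 (129 and 137 CPM), a LIM homeodomain factor of the anterior neural plate, Rax (93.8 and 129 CPM), which specifies the eye field, and Lhx2 (98.9 and 151 CPM), needed for eye and forebrain growth. Among the 25 leading genes were also Eras, Pcsk1n, Ehbp1, Ina, Kif21a and Wscd1, Irs4 (128 and 138 CPM), an adaptor of insulin signalling, Pou3f1 (318 and 285 CPM), a POU factor of the early neural plate, and Fezf1 (55.1 and 59.7 CPM), a forebrain zinc finger factor. Six3, which represses Wnt signalling at the anterior end, was at 47.3 and 47.4 CPM, and Hesx1, a forebrain repressor, at 58.9 and 50.6 CPM. Trunk neural cells held at most 3.52 CPM of Lhx2 and 0.455 CPM of Six3, so that these genes separated the brain end of the neural plate from its trunk in both fractions.

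Hox genes of groups 4 to 9, which mark the trunk, reached at least 3 UMIs in 8 tdTom+ cells (4.26%, 1.85% to 8.21%) and 31 host cells (6.54%, 4.49% to 9.15%). A small number of selected cells in each fraction thus carried trunk genes.

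Along the front to back axis the selected cells fell into ranges of 2 marker sums. An anterior sum was made of 8 genes, among them Six3, Hesx1, Rax, Lhx2, Six6, Fezf1 and Fezf2, and a midbrain sum of En1, En2, Pax2, Pax5, Pax8, Wnt1 and Dmbx1, a midbrain homeobox gene. A cell was counted as anterior with at least 2 UMIs of the first and fewer than 2 of the second sum, as midbrain in the reverse case, as both, or as neither. These are ranges and not cell types: 8 tdTom+ and 25 host cells sat at exactly 2 anterior UMIs and 11 and 32 at 1, while 13 and 41 sat at 2 midbrain UMIs and 29 and 103 at 1.

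Anterior cells were the largest range in both fractions at full depth. They numbered 76 of 188 in the tdTom+ fraction (40.4%, 33.3% to 47.8%) and 234 of 474 in the tdTom- fraction (49.4%, 44.8% to 54.0%). Midbrain cells numbered 66 (35.1%, 28.3% to 42.4%) and 116 (24.5%, 20.7% to 28.6%). The ranking depends on the UMIs counted: with unspliced UMIs added, 25% of tdTom+ cells were anterior and 36.7% midbrain, and 33.8% and 26.2% of host cells. At equal depth, after thinning, the anterior share was 39.7% (32.6% to 47.1%) and 51.8% (47.2% to 56.5%), and the midbrain share 32.1% (25.4% to 39.3%) and 22.8% (19.1% to 26.9%). In these 2 libraries the anterior share was lower and the midbrain share higher in tdTom+ cells, by amounts close to the counting error. The midbrain intervals overlap at both depths and the anterior intervals at full depth, and the spread between embryos is not known. When the Sox2 UMIs of host cells were thinned to 1 in 2 before selection, 20.3% of the host cells that remained were midbrain cells. Without this thinning it was 24.5%. The part of the Sox2 selection in these shares was not tested.

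**Figure D2:**
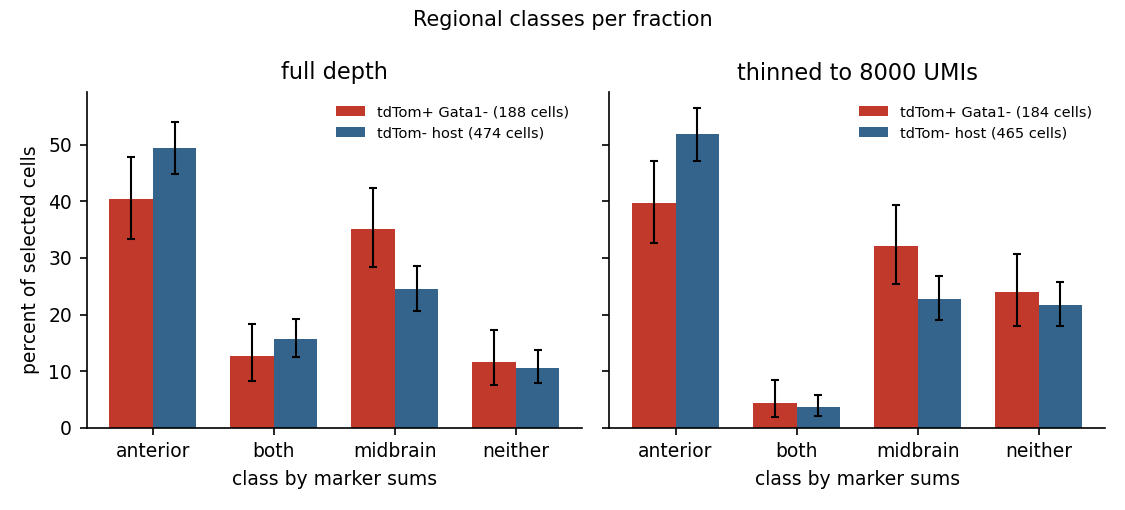
Percent of the selected cells (y axis, from 0) in each range of the marker sums (x axis), at full depth and after thinning to 8000 UMIs, with 95% Clopper-Pearson intervals as error bars. Anterior is the largest range in both fractions, at 40.4% of tdTom+ and 49.4% of host cells at full depth, but not in tdTom+ cells with unspliced UMIs added (25%).

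Six3 and En1 hardly met in the same cell. After thinning, 47 tdTom+ cells held Six3 and 57 held En1, and 1 held both. In the tdTom- fraction 120 held Six3, 108 held En1, and again 1 held both. Rax and En1 met in 0 cells of either fraction. Pax2 behaved differently: it was found in 17 of 60 Rax cells (28.3%) and 25.8% of cells without Rax in the tdTom+ fraction, and in 50 of 188 (26.6%) against 27.1% in the tdTom- fraction. Pax2 was thus spread over cells with and without Rax at nearly the same rate, where En1 was not.

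The cells with both sums numbered 24 tdTom+ and 74 tdTom- at full depth, of which Scrublet called 2 and 9. After thinning, 8 of 184 tdTom+ (4.35%) and 17 of 465 host cells (3.66%) fell in this range. Pax2, Rax, Lhx2 and En1 are part of the sums, so their presence here is partly set by the definition. The cells with both sums at full depth mostly held Pax2 together with anterior genes. Pax2, which as background is also a gene of the optic vesicle, was in 87.5% of them in the tdTom+ and 91.9% in the tdTom- fraction. Rax was in 75% and 71.6%, and Lhx2 in 79.2% and 85.1%. En1 was in 1 of the 24 and 8 of the 74 cells (4.17% and 10.8%), whereas 93.9% and 92.2% of midbrain cells held it. Fgf8, the signal of the isthmus and of the anterior neural ridge, had its highest level in these cells, at 125 CPM in tdTom+ and 92.7 CPM in host cells, against 44.6 and 73.3 CPM in midbrain and 19.1 and 28.8 CPM in anterior cells.

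Genes outside the selection and the marker sums also separated the anterior and midbrain ranges, in the same direction in both libraries. Of 6878 genes compared, 51 were at least 2-fold higher in anterior and 47 in midbrain cells in both libraries. These counts are a description, since the ranges come from the same cells. The leading anterior genes included the heart muscle genes Actc1, Myl3, Myl7, Tnnt2 and Tnnc1, which lay mostly in a few cells described below. Shisa2, an inhibitor of Wnt and FGF receptors, was at 67.5 CPM in anterior and 7.32 CPM in midbrain tdTom+ cells, and at 85.3 and 4.64 CPM in host cells. Fzd5, a Wnt receptor of the eye field, Foxd1, a factor of the optic vesicle, and Emx2, a factor of the dorsal forebrain, were anterior too. Pax6 was at 40.2 CPM in anterior and 2.20 CPM in midbrain tdTom+ cells, and at 47.5 and 6.49 CPM in host cells.

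The Iroquois factors were higher in midbrain than in anterior cells. Irx3 was at 121 CPM in midbrain and 6.82 CPM in anterior tdTom+ cells, and at 146 and 8.74 CPM in host cells. Irx1 was at 70.3 and 4.09 CPM, and at 110 and 6.38 CPM, in the same order, and cells with neither sum held it at 39.4 CPM in the tdTom+ and 94.7 CPM in the tdTom- fraction. Nkx6-2, a ventral neural tube factor, Lmx1b, a factor that maintains the isthmus, and Fam181b followed the same pattern. The Notch effectors Hes5 and Hes1 differed in opposite directions. Hes5 was at 82.0 CPM in midbrain and 7.5 CPM in anterior tdTom+ cells, and at 91.8 and 23.4 CPM in host cells. Hes5 was thus lower in anterior than in midbrain cells of both fractions, and in host cells it was higher still in cells with neither sum, at 115 CPM. Hes1 was at 75.7 CPM in anterior and 37.3 CPM in midbrain tdTom+ cells, and at 63.8 and 27.8 CPM in host cells.

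The cells with neither sum, 22 tdTom+ and 50 tdTom-, were no blank group. Wnt8b, a Wnt ligand of the dorsal diencephalon and hippocampal anlage, was highest in them, at 130 CPM in tdTom+ and 198 CPM in host cells against 38.2 and 56.2 CPM in anterior cells. Crabp1, a binding protein of retinoic acid, was at 403 and 372 CPM. Shh (33.4 and 14.6 CPM) and Foxa2 (51.5 and 6.07 CPM), genes of the ventral midline, rest on 11 and 12 and on 17 and 5 UMIs. In host cells Foxa2 was lowest in this range, with 19.4 CPM in anterior cells, 19.5 CPM in midbrain cells and 13.7 CPM in cells with both sums.

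The selected cells of the 2 fractions were close in most genes. Of 7652 genes with at least 100 UMIs over both fractions, 21 (0.274%) were at least 2-fold higher in tdTom+ cells with an interval that excluded no change, and 42 (0.549%) were lower. Genes that met both conditions are called past the fold below. The median log2 fold of tdTom+ over host cells was -0.03, and 5% of genes lay below -0.43 and 5% above 0.33. No gene of the anterior or of the midbrain marker sum was past the fold.

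**Figure D3:**
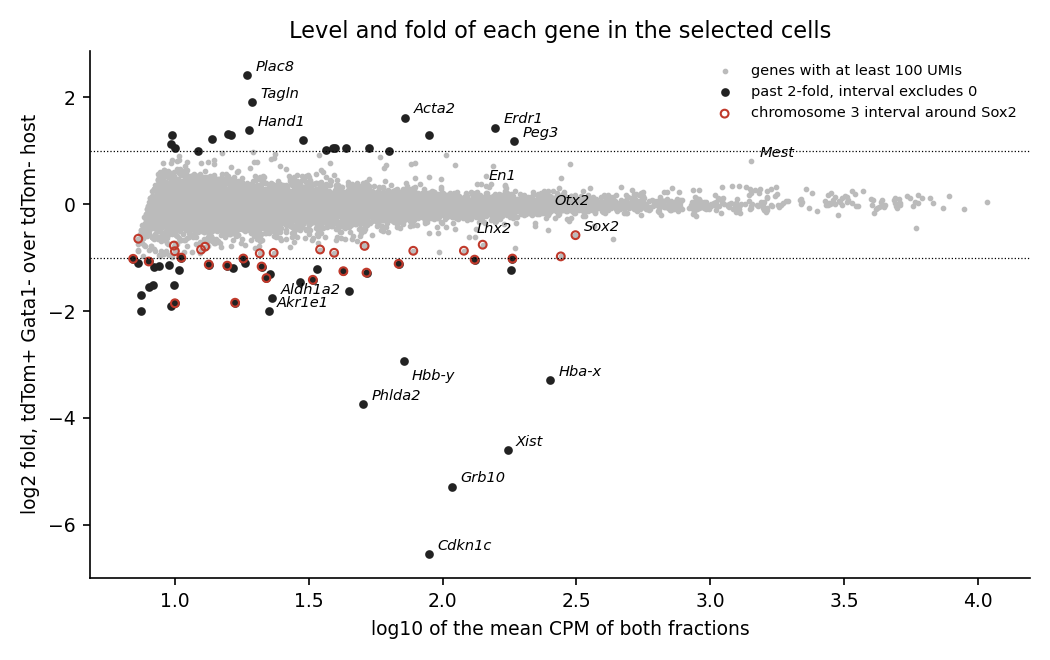
Log10 of the mean CPM of both fractions (x axis) against the log2 fold of tdTom+ over host cells (y axis) for each of the 7652 genes, with dotted lines at 2-fold. Cdkn1c, Grb10, Xist and Phlda2 lie lowest, Plac8 lies highest, and the genes of an interval around Sox2 cluster near the lower line.

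Forebrain genes as a group were at similar levels. Of the 31 genes of the forebrain and eye field list, 19 had enough UMIs, and the median log2 fold was -0.12 beside -0.03 over all genes. Otx2 (log2 fold -0.10, -0.22 to 0.01) chose the cells, so its level is a description. Tle4, a co-repressor (157 CPM in both fractions), and Lhx5 (-0.09), the next in abundance, differed little. Lhx2 (-0.61, -0.78 to -0.45) and Rax (-0.46, -0.63 to -0.28) were lower in tdTom+ cells. Six3 was at equal levels (0.00, -0.27 to 0.25). Pax6 (25.1 against 39.8 CPM, log2 fold -0.66, -1.01 to -0.33) and Wnt8b (36.7 against 59.0 CPM, -0.68, -0.97 to -0.41) were lower, short of 2-fold. These folds are pooled over fractions with different shares of anterior cells (40.4% and 49.4%). Within anterior cells, Rax reached 183 CPM in tdTom+ against 195 CPM in host cells, Lhx2 165 and 224 CPM, Six3 87.3 and 72.5 CPM, and Hesx1 105 and 78.2 CPM. All of them are part of the sum that chose the anterior cells, so their levels within it are a description.

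Nkx2-1, the ventral forebrain factor, had 1 UMI in tdTom+ and 53 in host cells (0.270 and 5.96 CPM, log2 fold -4.46, -9.79 to -1.92). With 54 UMIs it lies under the minimum of 100, and it was singled out after its values were seen. Its tdTom- UMIs were nearly all in anterior cells, at 12.1 CPM.

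Midbrain and isthmus genes were also at similar levels as a group, with a median log2 fold of -0.08. Of 19 genes, 11 had enough UMIs and Spry1, a feedback inhibitor of FGF signalling, was past the fold (lower). En1, a homeobox factor of the midbrain, had 156 CPM in tdTom+ cells against 121 CPM in host cells (log2 fold 0.38, 0.23 to 0.52). Sp5, a Wnt target (64.3 and 51.6 CPM), Pax2 (48.1 and 40.1 CPM), Pax5 (37.3 and 26.1 CPM) and Wnt1 (31.1 and 23.2 CPM) leaned the same way, and Fgf8 (43.5 and 51.5 CPM) and En2 (11.1 and 15.9 CPM) did not. These levels are pooled over fractions with different shares of midbrain cells (35.1% and 24.5%). Within midbrain cells, En1 reached 416 CPM in tdTom+ against 487 CPM in host cells, and Wnt1 82.0 against 89.0 CPM. En2 reached 29.3 against 63.5 CPM, while Pax2 (76.1 and 62.6 CPM) and Pax5 (86.4 and 77.4 CPM) were higher in tdTom+ midbrain cells. All of them are part of the sum that chose the midbrain cells, so their levels within it are a description. Spry1 lies in the chromosome 3 interval described at the end.

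Hoxb2, expressed from the hindbrain backwards, reached 4.32 CPM in tdTom+ against 12.3 CPM in host cells (log2 fold -1.50, and -0.98 without called doublets). Cdx4, a factor of the tail end, was at a log2 fold of -1.10 on 43 and 222 UMIs, of which 3 cells held 81.4% in the tdTom+ fraction. It was not past the fold without called doublets (-0.64) or with minimums of 3 UMIs (-0.51). Hoxb9 (4.05 and 11.9 CPM, -1.56) rests on 15 and 106 UMIs, with 46.7% of the tdTom+ ones in 3 cells. Without cells with Hox UMIs, a filter that uses Hoxb9 itself, its value was 1.22. Of the other genes of these lists, Meis2 (75.4 and 96.1 CPM), a cofactor of Hox proteins, and Epha4 (54.6 and 62.2 CPM), an ephrin receptor of rhombomeres, were the most abundant and not past the fold.

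Among the signalling pathways, few genes differed past the fold, and few did over all genes (0.274% higher and 0.549% lower). Counts of 0 or 1 in lists of this size thus do not set a pathway apart. Of 26 Wnt genes with enough UMIs none was past it (median log2 fold -0.11), with Ctnnb1 (beta-catenin, 292 and 326 CPM), Sfrp1 (a secreted inhibitor, 195 and 247 CPM), Fzd2 (a receptor, 181 and 177 CPM) and Dkk1 (an inhibitor needed for head formation, 89.2 and 81.2 CPM) the most abundant. Of 11 FGF genes Spry1 alone was past it, and the receptor Fgfr1 was at 82.4 and 84.2 CPM. Of 13 Notch genes none was past it (median -0.01), Hes3 being at 71.1 and 61.1 CPM and Hes5 at 43.0 and 48.2 CPM.

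The Hedgehog and ventral genes gave 0 of 11 past the fold with a median of 0.07. Such a count does not set them apart from all genes. Ptch1, the Hedgehog receptor and target, had 105 CPM in tdTom+ cells against 73.4 CPM in host cells (log2 fold 0.51), Nkx6-1 at 46.5 and 31.9 CPM (0.54), and Nkx6-2 at 19.7 and 10.1 CPM (0.96), while Gas1, a co-receptor, was at 112 and 101 CPM. Gli3, a repressor of the pathway, was at 50.5 and 64.2 CPM (-0.35). Nkx6-2 lay mostly in midbrain cells, whose share differed between the fractions, and within them it was at 49.8 and 38.0 CPM and Nkx6-1 at 60.7 and 53.3 CPM.

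Of 7 retinoic acid genes, Aldh1a2, the enzyme that makes retinoic acid, was past the fold. It reached 10.5 CPM (39 UMIs) in tdTom+ cells and 35.6 CPM (317 UMIs) in host cells, a log2 fold of -1.76 (-2.28 to -1.28). The same gene differed by -0.25 (-0.46 to -0.04) in trunk neural and -0.26 (-0.54 to 0.03) in endothelial cells, and these differences were not compared by a test. After thinning it was in 7.07% of tdTom+ and 14.4% of tdTom- selected cells, against 8.02% and 8.28% of endothelial cells. Within the tdTom+ fraction 33 of the 39 UMIs lay in anterior cells (22.5 CPM, beside 15.2 CPM in endothelial cells), with 7.43 CPM in cells with both sums and 0.732 CPM in midbrain cells. Within the tdTom- fraction it was highest in cells with both sums (57.0 CPM) and anterior cells (44.0 CPM). The binding proteins Crabp2 (264 and 321 CPM) and Crabp1 (219 and 202 CPM) were abundant and not past the fold.

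Progenitor and cell cycle genes were at similar levels by their medians. With 0.274% of all genes higher and 0.549% lower past the fold, counts of 0 in these lists do not set them apart. Of 21 pan-neural genes none was past the fold (median -0.07), with Sox11 at 456 and 475 CPM, Sox4 at 394 and 406 CPM and Pou3f1 at 318 and 285 CPM. Sox2 (251 and 376 CPM) had a log2 fold of -0.58 and is described with its chromosomal neighbours below. Sox1 (44.6 and 44.1 CPM) and Sox3 (89.4 and 84.3 CPM) were level, while Sox21 was lower (39.2 and 59.4 CPM, -0.60). Of 42 S phase genes and of 50 G2M phase genes none was past the fold, and their medians were 0.00 and -0.02. Nasp, a histone chaperone, led the first list at 1123 and 1127 CPM. In neuronal differentiation, Tubb3 (neuronal tubulin, 87.8 and 119 CPM, -0.43) and Stmn2 (123 and 128 CPM) were present in both, and only Cdkn1c, described with the imprinted genes, was past the fold. The lists for apical polarity (0 of 21), pluripotency (0 of 5), glycolysis (0 of 18) and heat shock (0 of 11) held no gene past it. Of 13 p53 targets and apoptosis genes with enough UMIs, Zmat3 alone was past it (lower). Cdkn1a, a p53 target under the minimum and singled out after its values were seen, had 56 and 31 UMIs. It was in 15.4% of tdTom+ and 5.06% of host cells. Without the 3 richest cells of each fraction it was at 10.3 and 2.59 CPM.

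The largest differences, those of Cdkn1c and Grb10, were in imprinted genes, which are read from 1 parental copy. Xist, described with the sex-linked genes, came next (log2 fold -4.61). Of 8 maternally expressed genes 4 were lower past the fold in tdTom+ cells, beside 0.549% of all genes. Cdkn1c, an inhibitor of the cell cycle, reached 1.89 CPM (7 UMIs) in tdTom+ cells and 176 CPM (1569 UMIs) in host cells, a log2 fold of -6.54 (-7.86 to -5.50). Grb10, a growth inhibitor that binds receptor kinases, was at 5.40 and 210 CPM (-5.28, -6.00 to -4.65), and its UMIs were found in 5.85% of tdTom+ and 95.1% of host cells. Phlda2, best known for limiting placental growth, was at 7.03 and 93.5 CPM (-3.73), and Igf2r, which clears Igf2, at 12.97 and 32.3 CPM (-1.31). H19 went the other way (95.4 and 56.7 CPM, 0.75), with 37.4% of its tdTom+ UMIs in 3 cells, and was at 59.7 and 49.6 CPM without the 3 richest cells of each fraction. Ube3a (168 and 161 CPM) and Cd81 (147 and 169 CPM) were close.

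Of 11 paternally expressed genes 3 were higher past the fold in tdTom+ cells, beside 0.274% of all genes. They were Peg3 (256 and 113 CPM, 1.19), Peg10 (71.9 and 34.5 CPM, 1.06) and Usp29 (13.5 and 6.52 CPM, 1.05), and the group median was 0.80. Mest, an abundant hydrolase of embryonic tissue, was at 1806 and 1035 CPM (0.80, 0.76 to 0.85) and Kcnq1ot1, the noncoding RNA of the Cdkn1c domain, at 375 and 224 CPM (0.74). Igf2 did not share this lean (33.0 and 43.4 CPM, -0.40). Peg3 fell under 2-fold without the doublets (log2 fold 0.998) and without cells with Hox UMIs (0.93).

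These imprinted genes differed between the fractions in the other cells as well. Cdkn1c had a log2 fold of -6.07 in trunk neural and -6.34 in endothelial cells, Grb10 of -4.39 and -5.69, and Phlda2 of -3.60 and -3.55. Mest was at 0.86 and 0.79, and Peg3 at 1.10 and 0.84. The cause of these differences was not tested.

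Other genes with large folds also differed outside the neuroectoderm. Akr1e1, an aldo-keto reductase, had 8.92 CPM in tdTom+ cells against 35.9 CPM in host cells (log2 fold -2.01), with -1.65 in trunk neural and -1.74 in endothelial cells. Erdr1 was at 229 and 84.9 CPM (1.43), with 1.53 and 1.39.

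Sex-linked genes separated the fractions. Which sex each host embryo had is not given in the sources used here. Xist, the RNA of the inactive X chromosome, reached 13.8 CPM (51 UMIs) in tdTom+ cells and 336 CPM (2989 UMIs) in host cells. At least 3 Xist UMIs were held by 3 of 188 tdTom+ cells (1.60%, 0.330% to 4.59%) and 242 of 474 host cells (51.1%, 46.5% to 55.6%), and these 3 tdTom+ cells held 49 of the 51 UMIs. Ddx3y (41.9 and 18.3 CPM) and Eif2s3y (52.7 and 25.3 CPM), both on the Y chromosome, were higher in tdTom+ cells.

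Gata1, a gene of blood cells, was nearly absent. It had 3 UMIs in tdTom+ and 12 UMIs in tdTom- selected cells, too few to compare. Its relatives were low as well, with Gata2 at 9 and 1 UMIs and Gata6 at 36 and 46 UMIs. Of the blood list, only the 5 globins had 100 UMIs, and all were lower in tdTom+ cells. Under this minimum, the blood factors Tal1 (42 and 26 UMIs), Runx1 (19 and 8) and Spi1 (25 and 1) went the other way. Of their tdTom+ UMIs, 54.8%, 78.9% and 92% lay in 3 cells. The remaining genes of the list are not reported here. Hba-x, an embryonic alpha globin, was at 46.5 and 456 CPM (log2 fold -3.29) and Hbb-y, an embryonic beta globin, at 16.5 and 126 CPM (-2.94), and the adult alpha globin Hba-a2 had a log2 fold of -1.90. After thinning, Hba-x was in 32.6% of tdTom+ and 96.1% of tdTom- selected cells, against 30.7% and 94.9% of endothelial and 29.2% and 94.3% of trunk neural cells, so the share differed little between the cell groups of a library. All 3 cell groups were capped at the same globin share of 0.5%, and the values are not read as expression.

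Many of the higher genes rested on a few cells, and without called doublets 5 genes were higher past the fold, 4 of them among the 21. Myl7, Myl4, Myl3, Tnnc1, Tnnt2 and Actc1, contractile genes of heart muscle grouped after their values were seen, had 1333 UMIs in the tdTom+ cells, of which 1127 (84.5%) lay in 2 cells that Scrublet called doublets. In the host cells 1173 of 1513 UMIs (77.5%) lay in 4 cells, of which Scrublet called 1. Without called doublets the log2 fold of Myl7 changed from 1.29 to -1.83, and those of Myl3, Myl4, Tnnc1 and Tnnt2 changed sign likewise. Acta2, smooth muscle actin, was at 109 and 35.5 CPM (1.62) with all cells and at a log2 fold of -0.16 without doublets.

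Tagln, an actin-binding protein of smooth muscle (30.5 and 8.10 CPM, log2 fold 1.92), Hand1, a mesoderm and heart factor (27.3 and 10.5 CPM, 1.38), and Bmp4, a dorsalising signal (13.8 and 5.62 CPM, 1.29), each had over 50% of their tdTom+ UMIs in 3 cells. In host cells 3 cells held 59.7% of the Tagln, 52.7% of the Hand1 and 40% of the Bmp4 UMIs. Without called doublets none of them was past the fold (0.67, 0.33 and 0.14), and without cells with Hox UMIs the log2 folds were 1.54, 0.90 and 0.53. Endothelial cells of the same libraries held more of them, Hand1 being at 47.8 and 72.0 CPM and Bmp4 at 31.7 and 41.7 CPM. Plac8, a cysteine-rich protein with the highest fold of all, reached 31.3 CPM (116 UMIs) in tdTom+ cells and 5.85 CPM (52 UMIs) in host cells, a log2 fold of 2.42 (1.94 to 2.92). It was found in 19.1% of tdTom+ and 7.81% of host cells, and 54.3% of its tdTom+ UMIs lay in 3 cells. Without the 3 richest cells of each fraction it was at 14.3 and 4.05 CPM, and the fold in trunk neural (0.52) and endothelial cells (0.47) was smaller. Pappa, a protease that frees insulin-like growth factors, was more evenly spread, in 25.5% and 12.4% of cells (19.2 and 8.21 CPM, 1.22).

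Few markers of other cell types had enough UMIs. Of the lists for endothelial (1 of 11 genes with enough UMIs), mesoderm (3 of 16), endoderm (3 of 13), surface ectoderm (2 of 17), neural crest (4 of 11) and notochord (3 of 8), Hand1 was the only gene past the fold. The keratins Krt18 (139 and 83.5 CPM, log2 fold 0.74) and Krt8 (74.3 and 46.8 CPM, 0.67), which surface ectoderm and other epithelia express, were higher in tdTom+ cells, short of 2-fold. In the tdTom+ fraction 3 cells held 41.9% of the Krt18 and 42.5% of the Krt8 UMIs, and without the 3 richest cells of each fraction Krt18 was at 81.1 and 71.7 CPM and Krt8 at 42.7 and 36.2 CPM. Their part in the other results was not tested.

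The lower genes were not spread evenly over the genome: 16 of the 42 lay on chromosome 3, around Sox2. Sox2 lies at chr3:34650405-34652461 (GRCm38, plus strand). In the stretch of 9.41 Mb from Zmat3 (start 32334792), a p53 target, to Sclt1 (end 41742514), 31 genes had enough UMIs, and the interval was chosen after the values were seen. All 31 had log2 folds below 0, from -1.85 to -0.58 with a median of -1.0, and 30 of the 31 counting intervals lay below 0, Bbs7 being the exception. Without Sox2, which chose the cells, the 30 genes ranged from -1.85 to -0.65 with a median of -1.01, and 29 intervals lay below 0. Sox2 had the value nearest to 0, but its fold is bound by the minimum of 2 UMIs that every selected cell met. Acad9, an acyl-CoA dehydrogenase (4.32 CPM in tdTom+ and 15.6 CPM in host cells), had the lowest.

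The 5 nearest tested genes before the interval had a median of 0.07 and the 5 after it of -0.12. The nearest one before it, Skil, a regulator of TGF-beta signalling, was at -0.88 (-1.61 to -0.20), within the range of the interval, so that this border is not sharply set. After the interval no gene had enough UMIs for 4.70 Mb. The other 334 tested genes of chromosome 3 had a median of -0.04 with 0 past the fold. Among 287 windows of 5 Mb with at least 10 genes over the genome, the lowest medians were -0.93 and -0.91, both here, and the next lowest was -0.23. The genes of the interval have varied functions. Among the most abundant were Ndufb5, a subunit of respiratory complex I (186 CPM in tdTom+ and 366 CPM in host cells), Actl6a, a chromatin remodelling subunit (121 and 244 CPM), Ccna2, cyclin A2 (105 and 177 CPM), and Fxr1, an RNA-binding protein (86.2 and 177 CPM).

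The same interval was lower in the other cells, with a median log2 fold of -0.92 in trunk neural and -0.95 in endothelial cells over the same 31 genes. Sox2 itself was at 202 and 308 CPM in trunk neural cells (log2 fold -0.61, -0.71 to -0.51), next to -0.58 (-0.69 to -0.47) in the selected cells, and both groups had to hold at least 2 Sox2 UMIs. In endothelial cells, which stand for free RNA, Sox2 was at 4.43 and 15.9 CPM, and no fold of their own level is read from these values. Spry1 and Zmat3, the genes past the fold in the FGF and p53 lists, lie in it. The cause of the lower levels was not tested. Sox2 chose the cells, and its part in the difference in their share was not tested. With Sox2 UMIs of host cells thinned to 1 in 2, 3.99% of the tdTom- library (369 cells) met the criteria, and the tdTom+ share of 2.09% was 0.525 times this.

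**Figure D4:**
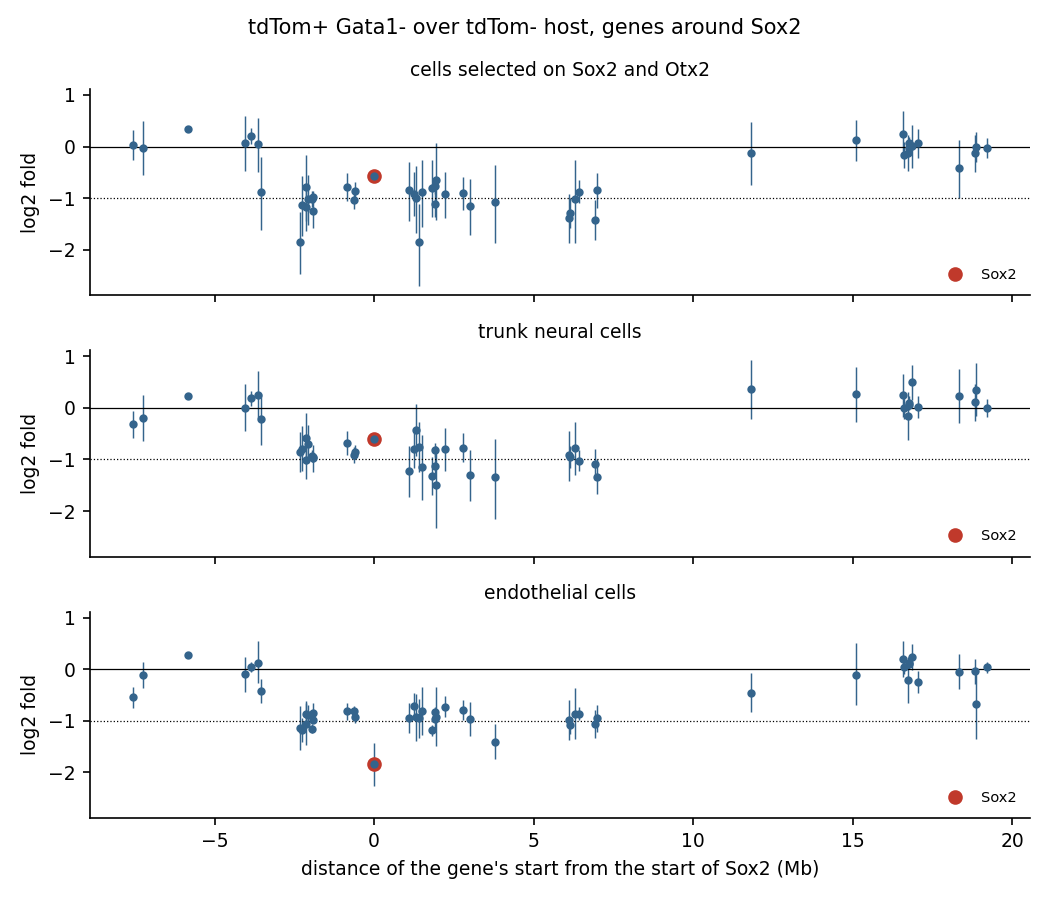
Log2 fold of tdTom+ over host cells with 95% counting intervals (y axis) against the distance of each gene's start from the start of Sox2 in Mb (x axis), for the selected, the trunk neural and the endothelial cells. The genes of the interval lie between -1.85 and -0.58 in the selected cells, and most of those beyond it lie nearer to 0, with Skil next to it at -0.88.

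The unspliced share of the regional genes differed widely from gene to gene. It was 8.02% of tdTom+ and 8.87% of host UMIs for Otx2, 1.53% and 1.83% for En1, 49.0% and 52.7% for Six3, 58.4% and 61.0% for Pax2 and 59.9% and 57.7% for Pax6. Lower shares in tdTom+ cells were found for Wnt1, at 14.2% (8.76% to 21.3%) against 25.9% (20.9% to 31.5%), and Lhx5, at 3.64% (2.17% to 5.69%) against 6.22% (4.97% to 7.67%). The intervals overlap for both genes, and the tdTom+ shares rest on 19 and 18 unspliced UMIs. For Grb10 the unspliced UMIs were as uneven as the spliced ones, at 18 in tdTom+ and 1875 in host cells.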

How the data were processed

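The authors mapped reads of each library with Cell Ranger 3.0.2 to mm10 (GRCm38), removed empty droplets and low-quality cells, and deposited counts of spliced and unspliced UMIs per gene and cell, which velocyto separates. These counts hold 8981 tdTom+ and 9252 tdTom- cells, with as few as 601 and 379 spliced UMIs per cell. That is more cells in each fraction than the paper reports after quality control and cell type assignment. All of them were used here without a further filter. The selected cells had at least 4342 and 3266 spliced UMIs. The cell metadata that the authors deposited also hold percent values of mitochondrial RNA. Cells were selected and UMIs summed per fraction in Python 3.11.15 (numpy 2.4.6, scipy 1.17.1, pandas 2.3.3, scanpy 1.11.5, matplotlib 3.10.9). Shares carry exact Clopper-Pearson, levels exact Poisson and folds exact conditional binomial intervals (95%, counting error only), with a floor of 3 counts for genes at 0. No cell was removed as a doublet. Gene positions come from GENCODE M21. The counting of folds was tested on simulated data.

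The criteria and gene lists were chosen with earlier results of these data known. Genes were named from these lists (the most abundant and those past 2-fold), the 10 largest folds in each direction, the 25 genes that best marked the cells, and Gata1 with its paralogues. Some members of these lists are not reported here. Alternatives covered UMI minimums, scaling, depth, doublets, unspliced UMIs and the use of Sox2. The tdTomato row held 0 UMIs and gave no check of the sort. In the cell metadata, 6 cells had no counterpart in the count tables.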

Additional observations from a re-analysis of the deposited data

Results flagged for a closer look

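Hand1, Pmp22 and Acta2 had log2 folds of 1.38, 1.02 and 1.62 in the selected cells and of -0.64, -0.21 and -0.37 in trunk neural cells, in opposite directions; the difference between the cell groups was not tested. Without called doublets the values in the selected cells were 0.33, 0.07 and -0.16. For tdTomato, the deposited gene metadata give 4842 Cell Ranger UMIs over all cells, while the spliced and unspliced counts used here hold 0.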

How the results depend on the processing

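With 1 library per fraction, no replicate could be left out. No paired analysis was possible because the fractions hold 1 library each and no test was run. The tdTom+ and tdTom- shares of selected cells were 3.08% and 6.83% with minimums of 1 UMI, 1.38% and 3.79% with minimums of 3, 0.792% and 2.71% in thinned cells, and 2.92% and 5.76% without a Sox2 minimum. The shares were 2.17% and 5.25% with unspliced UMIs added, and 2.05% and 5.09% without called doublets. With Sox1, Sox3 and Sox21 in place of Sox2 they were 2.02% and 4.18%. The tdTom- share was 3.99% with its Sox2 UMIs thinned to 1 in 2. With unspliced UMIs added the anterior share was 25% and 33.8%, and with thinned Sox2 the tdTom- midbrain share was 20.3%. Genes past the fold, higher and lower, numbered 86 and 116 with at least 30 UMIs per gene, 11 and 21 with at least 300, and 70 and 161 at 1.5-fold. The higher genes numbered 12 with each cell weighted equally, 5 without doublets, 13 with Sox1, Sox3 and Sox21, and 12 without cells with Hox UMIs. Of these 5, 4 were among the 21 of the full set. Directions turned without doublets for Acta2 (-0.16), Myl3 (-2.20), Myl4 (-1.27), Myl7 (-1.83), Tnnc1 (-1.12) and Tnnt2 (-1.99), and without cells with Hox UMIs for Epha5 (0.22), Hoxaas3 (0.10) and Hoxb9 (1.22); Hoxb9 is itself part of the Hox sum that removed these cells, and the other causes were not tested. Of 792 values of 99 named genes under 8 settings, 706 moved little, 77 moved more and 9 reversed. Median-of-ratios scaling shifted folds by 0.019. The settings that replace Sox2 and those that leave out cells with Hox UMIs were added after the data were seen.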
